A study of Arabidopsis thaliana with 60 samples.

Results

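The glutathione transferases of the tau class (GSTU1 to GSTU28) and of the phi class (GSTF2 to GSTF14) of Arabidopsis thaliana were followed in leaves that produce an autoactive piece of an immune receptor. The genes were picked by their identifiers from both tables of read counts, which gave 41 of 32678 genes, 28 of the tau class and 13 of the phi class. The piece is the coiled-coil domain of MLA, a barley resistance protein, fused to monomeric yellow fluorescent protein and placed behind a dexamethasone-inducible promoter (DEXp:MLACC-mYFP). Its production leads to cell death in the leaf. The wild type was Col-0, in which the MLACC line was set against a line that makes the fluorescent protein alone (DEXp:mYFP). The second background was ppsdes, Col-0 with the alleles sid2-2, ein2-1, dde2-2, sag101-2, pad4-1 and pen2-1, which lacks much of salicylic acid, jasmonate and ethylene signalling and other immune components. There, DEXp:MLACC-mYFP ppsdes was set against the mutant with no transgene. All 4 lines were infiltrated with 1 µM dexamethasone and sampled at 0, 2, 4, 6 and 8 h, with 3 replicates in each of 20 groups, 60 libraries in all. The MLACC plants of the 2 backgrounds are separate transgenic lines, and each background has a count table of its own. The study noted less MLACC protein in the mutant. The control also differs in kind, an induced mYFP line in the wild type and plants with no transgene in ppsdes. The background, the line, the protein level, the kind of control and the table therefore cannot be told apart.

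Glutathione transferases join the tripeptide glutathione to reactive or toxic small molecules, and transporters of the ABCC family then move many of the conjugates into the vacuole. Tau and phi are the largest classes in plants, arose mostly by tandem duplication, and hold many genes that respond to pathogens, herbicides, oxidants and hormones. Some members bind or carry small molecules rather than detoxify them. GSTF6 is linked to the making of camalexin, the main phytoalexin of Arabidopsis, GSTF12 (TT19) carries anthocyanins and proanthocyanidin precursors, GSTF11 and GSTU20 are linked to glucosinolates, and GSTU17 and GSTU20 are also known from light signalling.

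By position in the TAIR10.1 assembly, 29 members lay in 9 tandem clusters and 12 stood alone. The largest cluster, GSTU1 to GSTU7, covers chr2:12617936-12632538 on the minus strand. GSTU19 to GSTU23 lie at chr1:29467412-29488007 on the minus strand, GSTU24 to GSTU26 at chr1:5869543-5876620 on the plus strand, GSTU11 with GSTU12 at chr1:26334250-26338818 on the minus strand and GSTU17 with GSTU18 at chr1:3395551-3398358. In the phi class, GSTF4 to GSTF7 lie at chr1:658578-666471 on the minus strand and GSTF9 with GSTF10 at chr2:13138882-13142676 on the plus strand. The remaining pairs are GSTU13 with GSTU14 and GSTU15 with GSTU16. Coding sequences were more than 90% identical only for GSTF2 with GSTF3 (94.52%) and GSTF6 with GSTF7 (94.29%). Reads of such a pair could be split or lost in the counting, so the single members of these pairs carry that uncertainty.

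Promoter stretches of a pair of neighbours from each of 2 tandem clusters are shown here because the neighbours moved in opposite directions after MLACC, as described below. Each is the 300 bases before the annotated start of the gene in the RefSeq annotation of TAIR10.1, read 5′ to 3′ along the gene's strand. Capitals mark the letters TGACG, the core of the as-1 element bound by TGA factors, and TTGACC or TTGACT, forms of the W box bound by WRKY factors, read on either strand. The 2 motifs can overlap. GSTU19 (chr1:29488008-29488307, minus strand) holds 2 W boxes and GSTU20 (chr1:29485390-29485689, minus strand) neither motif. GSTU25 (chr1:5871724-5872023, plus strand) holds TGACG and GSTU26 (chr1:5874995-5875294, plus strand) both motifs. GSTU24, which rose while GSTU26 fell, also holds both motifs. GSTU17 and GSTU18, not shown, moved in opposite directions as well and hold neither motif. The part of the motifs in these changes was not tested.
GSTU19: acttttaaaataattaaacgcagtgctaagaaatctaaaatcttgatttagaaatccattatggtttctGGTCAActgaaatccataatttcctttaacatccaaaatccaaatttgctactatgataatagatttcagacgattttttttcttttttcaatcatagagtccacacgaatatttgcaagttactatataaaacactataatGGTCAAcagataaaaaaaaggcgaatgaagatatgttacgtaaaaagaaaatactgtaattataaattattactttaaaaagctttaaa
GSTU20: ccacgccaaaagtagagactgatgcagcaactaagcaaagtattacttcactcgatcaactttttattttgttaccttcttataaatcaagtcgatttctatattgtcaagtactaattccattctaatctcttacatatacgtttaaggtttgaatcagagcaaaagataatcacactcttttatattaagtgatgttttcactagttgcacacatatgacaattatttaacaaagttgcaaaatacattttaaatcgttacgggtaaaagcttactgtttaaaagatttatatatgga
GSTU25: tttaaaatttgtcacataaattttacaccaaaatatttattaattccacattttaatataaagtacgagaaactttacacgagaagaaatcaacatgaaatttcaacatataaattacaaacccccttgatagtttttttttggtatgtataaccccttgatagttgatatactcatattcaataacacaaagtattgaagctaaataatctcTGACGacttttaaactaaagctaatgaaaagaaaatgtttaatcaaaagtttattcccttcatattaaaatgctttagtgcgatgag
GSTU26: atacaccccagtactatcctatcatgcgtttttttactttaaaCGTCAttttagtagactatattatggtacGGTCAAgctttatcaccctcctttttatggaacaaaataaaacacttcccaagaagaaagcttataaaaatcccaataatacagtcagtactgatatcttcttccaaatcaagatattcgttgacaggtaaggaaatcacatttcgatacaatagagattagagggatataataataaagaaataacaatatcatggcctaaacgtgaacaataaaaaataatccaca

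In such stretches, TGACG was found in 17 of the 41 members (41.5%) and in 21.3% of the 27443 genes of the annotation. TTGACC or TTGACT was found in 21 members (51.2%) and in 32.3% of all genes. CGCG, a form of the CGyG core bound by CAMTA factors, was in 7.32% of members and 11.8% of all genes. The other form, CGTG, was not counted as such, so these shares cover only a part of the CAMTA sites. The G box CACGTG was in 7.32% of members and 7.09% of all genes. Tandem copies share sequence, so members are not independent of each other, and a match is only a match of letters.

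The libraries held 14079955 to 25953840 reads counted to genes, so that 1 read was worth 0.0385 to 0.071 counts-per-million units (CPM). CPM were scaled by the trimmed mean of M values over all 60 libraries and are given in the order of replicates 1, 2 and 3. In 7 of the 60 libraries the whole profile was nearest to the mean of another time of the same line, among them the mYFP library of replicate 3 at 2 h and the ppsdes control library of replicate 2 at 8 h. Of the 6 mutated genes, SID2, DDE2, EIN2 and SAG101 were lower in the ppsdes control than in mYFP at 0 h, while PEN2 (log2 fold change -2.01, adjusted p = 0.0564) and PAD4 (-0.36, adjusted p = 0.906) did not pass the test. An allele can leave its transcript in place. Tests were quasi-likelihood tests in edgeR over all genes with Benjamini-Hochberg adjustment, and a gene was called higher or lower where the adjusted p was under 0.01 and the log2 fold change more than 1 in size. Fold changes are followed by their standard error (SE). A filter on low counts left 36 of the 41 members in the wild-type table and 31 in the ppsdes table. GSTU14, GSTU15, GSTU21, GSTU22 and GSTF14 were tested in neither, and GSTU2, GSTU3, GSTU11, GSTU12 and GSTU25 only in the wild type. In the wild-type table, 12 of the 36 passed the filter only with the MLACC libraries counted (GSTU2, GSTU3, GSTU4, GSTU8 to GSTU12, GSTU25, GSTF3, GSTF5 and GSTF13). In the ppsdes table, 5 of the 31 did (GSTU4, GSTU8, GSTU9, GSTU10 and GSTF5). The filter took these genes for their reads in MLACC, which favours a rise once they are tested. Counts over tested members therefore describe the members and are no support for them.

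At rest, per kilobase of exon, GSTU19 was the most abundant of the 41 genes in the mYFP line, at 215 ± 4.65 CPM per kb (SD, n = 3). It was followed by GSTU17 at 185 ± 31.2, GSTU5 at 135 ± 21.2, GSTU20 at 129 ± 27.5, GSTF9 at 119.5 ± 17.5 and GSTF8 at 118 ± 15.4 CPM per kb. GSTU19 and GSTU17 overlapped within their spread, as did the 4 genes after them. In the ppsdes control GSTU19 was again at the top, at 265.5 ± 19.85 CPM per kb. No member was called between the 2 control lines at 0 h in either direction, where 0.146% of all genes were higher and 0.206% lower in ppsdes. No member was called between MLACC and its control at 0 h in either background, beside 0% of all genes higher and 0.00509% lower in the wild type and 0.0052% in each direction in ppsdes, nor in the difference between these effects (0.00502% of all genes in each direction). DESeq2 called none in these 0 h comparisons, and edgeR gave an unadjusted p under 0.05 for 2 members higher and 1 lower in the ppsdes control, and for 1 lower in wild-type MLACC. Before induction the 41 genes together took 0.145% of the gene counts in the mYFP line and 0.148% in the MLACC line, and 0.158% and 0.151% in the 2 ppsdes lines.

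In both control lines, a small set of phi genes was higher 2 h after infiltration with dexamethasone than at 0 h. GSTF6 (AT1G02930) was at 4.30, 4.13 and 3.32 CPM in mYFP at 0 h and at 346, 435 and 24.2 CPM at 2 h. Replicate 3 stayed far below its fellows, yet above every 0 h library, and the log2 fold change was 6.11 ± 0.83 (adjusted p = 9.33e-06). In the ppsdes control GSTF6 went from 0.518, 1.08 and 0.814 CPM to 33.3, 167 and 178.5 CPM (7.31 ± 1.21, adjusted p = 7.63e-05). Its neighbour GSTF7 (AT1G02920) rose by 4.80 ± 0.78 in mYFP and 4.81 ± 1.15 in the ppsdes control. GSTF10 (AT2G30870) went from 96.2, 78.1 and 94.3 CPM to 406, 378 and 157 CPM in mYFP (1.82 ± 0.28) and from 113.5, 121 and 97.0 CPM to 294, 356 and 350.5 CPM in the ppsdes control (1.62 ± 0.22). The groups did not overlap in either line.

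GSTF12 (AT5G17220), the anthocyanin carrier, moved the other way. It was at 1.20, 2.33 and 2.097 CPM in mYFP at 0 h and at 0.230, 0.0409 and 0.0461 CPM at 2 h, a change of -4.02 ± 0.60 (adjusted p = 8.95e-05). At 8 h no read of it was counted in any mYFP library. In the ppsdes control it kept 1.32, 1.02 and 0.876 CPM at 2 h and was called lower only at 6 h (-3.41 ± 1.00). GSTF13 (AT3G62760) had no read in the ppsdes control at 0 h and 0.910, 0.460 and 1.295 CPM at 2 h, and was back at 0 at 6 and 8 h. GSTU5 (AT2G29450), a resting tau gene, fell by 1.02 in mYFP at 2 h (SE 0.28, adjusted p = 0.00756), close to the fold limit of 1. The count of members lower in mYFP at 2 h fell in each fit that left out a library of the groups compared. In the ppsdes control at 2 h, GSTU20 (AT1G78370) changed by -1.75 ± 0.49, from 93.9, 137 and 195 CPM to 35.8, 27.0 and 60.7 CPM. GSTU27 (AT3G43800) there changed by -1.42 ± 0.29, from 42.7, 36.3 and 36.1 CPM to 20.5, 13.6 and 8.15 CPM. Neither group overlapped its 0 h group.

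By 8 h, GSTF9 (AT2G30860) became the most abundant phi gene of both controls. It went from 129, 142.5 and 171 CPM at 0 h to 1211, 1261 and 926 CPM at 8 h in mYFP (3.01 ± 0.27) and rose by 2.33 ± 0.24 in the ppsdes control, where it had been called lower at 2 h (-1.101). GSTU17 (AT1G10370) went down from 176, 248 and 219 CPM to 13.5, 12.25 and 12.3 CPM in mYFP, a change of -4.01 ± 0.29, and changed by -2.998 ± 0.48 in the ppsdes control. GSTU26 (AT1G17190) rose in both (2.28 and 1.32), GSTF11 (AT3G03190) rose in both (2.75 and 2.58) and GSTF8 (AT2G47730) fell in both (-1.21 and -2.02). At 2, 4, 6 and 8 h against 0 h, mYFP had 3, 4, 5 and 5 members higher and 2, 1, 4 and 4 lower of 36. The shares over all genes were 6.86%, 7.67%, 10.3% and 11.7% higher and 3.77%, 5.45%, 9.56% and 10.3% lower. The ppsdes control had 5, 5, 6 and 6 higher and 4, 3, 2 and 4 lower of 31, beside 7.59%, 8.21%, 9.49% and 10.3% of all genes higher and 4.45%, 5.69%, 9.4% and 10.4% lower. Of the tested members, 8.33% to 13.9% were thus higher in mYFP and 16.1% to 19.4% in the ppsdes control, the second above the shares of all genes at each time. Each fit that left out a library of the groups compared lowered the ppsdes counts of higher members at 4 and 6 h. With library totals in place of the trimmed mean, the calls at 2 h were 4 higher and 1 lower in mYFP and 6 higher and 1 lower in the ppsdes control, and at 4 h in the ppsdes control 5 higher and none lower. Infiltration, dexamethasone and the hour of the day cannot be told apart here, nor, in the mYFP line, the making of the fluorescent protein. The same control libraries enter the MLACC comparisons.

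In the wild type, MLACC raised most of the tested tau and phi genes from 4 h on, among them GSTU3 (AT2G29470), GSTU4 (AT2G29460) and GSTU11 (AT1G69930), which had few or no reads in mYFP and passed the filter only through MLACC, while a smaller set of tau genes, led by GSTU26, went down. Of 36 members tested, 24 were higher and 4 lower at 4 h, 22 and 3 at 6 h, and 24 and 5 at 8 h. With the 0 h difference subtracted, 12, 12 and 16 were higher at these times, and with a stricter filter, which tests fewer members, 11, 9 and 11. Over all 19654 genes, 21.4% were higher and 17.6% lower at 4 h, 18.8% and 10.5% at 6 h, and 23.1% and 22.6% at 8 h. The median log2 fold change of the members was 2.92, 3.39 and 4.74 at these times, against 0.02, -0.02 and 0.02 over all genes. With the members that had no control reads set to the lower bound of their fold, the median at 8 h was 4.03. Scaling by library totals shifted the median of all genes by -0.17 at 4 h and by 0.196 in the difference between backgrounds at 4 h, and no called member changed direction under it. The heat map of fold changes shows the 41 genes side by side.

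**Figure D1:**
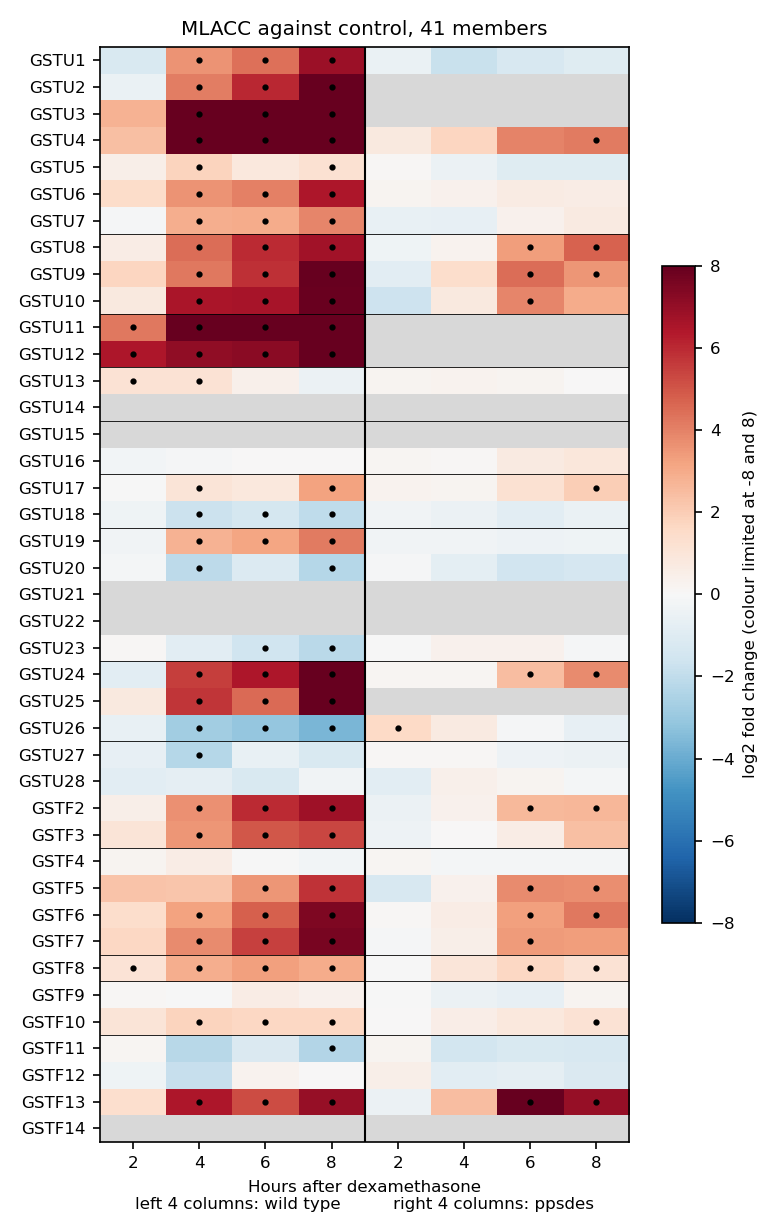
Log2 fold change of MLACC against its control for each of the 41 genes (rows, grouped by class and tandem cluster) at 2, 4, 6 and 8 h in the wild type (left 4 columns) and in ppsdes (right 4 columns). Red is higher and blue lower with the colours limited at 8 in either direction, dots mark called genes and grey cells genes that were not tested; in the wild type 24 members were called higher at 8 h, in ppsdes 11.

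Markers of leaf cell types moved with this. All 5 mesophyll genes (RBCS1A, RBCS3B, LHCB1.1, LHCB2.1 and CA1) were called lower in the wild type at 8 h, by log2 fold changes between -2.41 and -1.41. Their summed level was 33530 to 38110 CPM in mYFP and 5787 to 16220 CPM in MLACC. Of 4 epidermis, guard cell and trichome genes, KAT1 was higher and the other 3 were lower, and no gene of the vasculature list (0 of 4) or the root list (0 of 3 tested) was called. In bulk leaf, fewer cells of a type and less RNA per cell cannot be told apart, and the part of these shifts in the results was not tested.

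At 2 h only 4 members were called, all higher, beside 4.14% of all genes higher and 0.117% lower. GSTU12 (AT1G69920) had 2.96, 1.28 and 0.798 CPM in MLACC and 0.0384, 0 and 0 CPM in mYFP, a single read in the latter, a ratio of 121 with a 95% counting interval of 21.3 to 4830. Its neighbour GSTU11 had 1.48, 1.54 and 0.299 CPM and 0.115, 0.0409 and 0 CPM (4.24 ± 1.01, adjusted p = 0.00881). Both were at 0 in every wild-type library at 0 h. GSTU13 (AT1G27130) was at 95.8, 76.7 and 65.1 CPM in MLACC and at 36.4, 46.1 and 29.5 CPM in mYFP (1.13 ± 0.19, adjusted p = 0.00032). GSTF8, a gene known for its response to oxidative stress, was at 513.5, 414 and 357 CPM and 219.9, 244 and 155 CPM (1.097 ± 0.25, adjusted p = 0.00432). None of these groups overlapped. The count of 4 fell to 1 without mYFP replicate 3 or without MLACC replicate 1, and to 2 without mYFP replicate 1, and GSTU12 kept its call in all 6 such fits. No member was lower with DESeq2 either, and 1 had an unadjusted p under 0.05.

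In the cluster GSTU1 (AT2G29490) to GSTU7 (AT2G29420), all 7 genes were called higher at 4 h and at 8 h, with medians of 3.60 and 6.84. The shares over all genes at these times are given above. GSTU2, GSTU3 and GSTU4 passed the filter only through MLACC, so this count and these medians are no support. GSTU1, GSTU5, GSTU6 and GSTU7 also passed with the mYFP libraries alone. GSTU4 was at 0.04555, 0.135 and 0.308 CPM in mYFP at 8 h and at 364.5, 688.5 and 398 CPM in MLACC, a change of 11.55 ± 1.02 (adjusted p = 4.57e-09). At 4 h it was at 89.5, 453 and 393 CPM against 0.0879, 0.322 and 0.299 CPM. Next to it, GSTU3 had 1 read in the 3 mYFP libraries at 8 h and 63.9, 194 and 124 CPM in MLACC, a ratio of 7770 with a 95% counting interval of 1390 to 307000. At 4 h it had no read in mYFP and 5.76, 39.9 and 56.7 CPM in MLACC, at least 772-fold higher. GSTU1 was at 0.319, 0.404 and 0.615 CPM in mYFP and 33.1, 73.6 and 44.7 CPM in MLACC at 8 h (6.84 ± 0.47, adjusted p = 3.21e-10). The MLACC and mYFP groups of these 3 genes were far apart, and MLACC replicate 2 was the highest at 8 h in each.

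GSTU5 behaved unlike its neighbours in level. It was already at 147.5, 166 and 200.5 CPM at rest and reached 222, 598 and 481 CPM in MLACC at 4 h against 134, 150.3 and 112 CPM in mYFP (1.77 ± 0.29), and 278.5, 408 and 314 CPM against 156, 139 and 130.3 CPM at 8 h (1.25 ± 0.28). At 6 h it missed the fold limit (0.84 ± 0.28, adjusted p = 0.0124). GSTU2 (AT2G29480), GSTU6 (AT2G29440) and GSTU7 were called higher at 4, 6 and 8 h. GSTU2 was at least 158-fold higher at 8 h, GSTU6 rose by 6.44 ± 0.62 and GSTU7 by 3.93 ± 0.33. The libraries do not mark strand. AT2G29485 overlaps GSTU2 by 849 bases and is not among the counted genes, so its reads cannot be told from those of GSTU2. AT2G29430 overlaps GSTU6 by 398 bases and was counted, and reads that fit both were left out.

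The other inducible tau genes sit outside that cluster. GSTU11 reached 27.3, 82.8 and 82.4 CPM in MLACC at 4 h and 40.9, 104 and 54.3 CPM at 8 h, when the 3 mYFP libraries held 1 read, a ratio of 4090 with a counting interval of 733 to 161000. GSTU12, beside it, was highest at 4 h, at 9.21, 29.9 and 21.35 CPM, and at 5.28, 15.1 and 10.4 CPM at 8 h against 1 read in mYFP (ratio 627, interval 112 to 24800). GSTU10 (AT1G74590) was at 0.137, 0.224 and 0.103 CPM in mYFP and 30.1, 58.0 and 26.7 CPM in MLACC at 8 h (7.90 ± 0.59, adjusted p = 5.88e-10). It shares 279 bases with AT1G74580, which itself fell by 1.83. GSTU8 (AT3G09270) was at 0.410, 0.08975 and 0 CPM and 12.4, 28.3 and 14.4 CPM (6.72 ± 0.69, adjusted p = 2.83e-08). GSTU9 (AT5G62480) stayed low, with no read in mYFP and 0.837, 2.46 and 2.03 CPM in MLACC, at least 37.7-fold higher. In all of these the groups were apart by 4 h and stayed so.

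Within GSTU19 (AT1G78380) to GSTU23 (AT1G78320), neighbours parted. GSTU19 was at 171, 182 and 198 CPM in mYFP and 578, 1448 and 1670 CPM in MLACC at 4 h, and at 288, 251 and 244 CPM and 3559, 6514 and 3436 CPM at 8 h. The groups were far apart, and the changes were 2.80 ± 0.28 and 4.13 ± 0.30 (adjusted p = 4.74e-08 and 4.93e-10). GSTU20, which lies 997 bases downstream of GSTU19 on the same strand, was at 359, 382 and 262 CPM in mYFP and 79.2, 3.43 and 124 CPM in MLACC at 8 h (-2.29 ± 0.61, adjusted p = 0.00202). MLACC replicate 2, the library with the most GSTU19, had the least GSTU20. GSTU20 was also lower at 4 h (-2.06 ± 0.61), a call lost without mYFP replicate 2 or MLACC replicate 2 or 3, and missed the threshold at 6 h (-1.10 ± 0.59, adjusted p = 0.108). GSTU23 was at 1.55, 1.93 and 1.795 CPM and 0.546, 0 and 0.599 CPM at 8 h (-2.14 ± 0.49, adjusted p = 0.000433). The untested GSTU22 (AT1G78340) had no read in mYFP at 8 h and 23 reads in MLACC, at least 7.23-fold more, and GSTU21 (AT1G78360) had at most 1 read in any wild-type group.

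GSTU24 (AT1G17170) to GSTU26 parted in the same way. GSTU24 was at 0.228, 0.314 and 0.359 CPM in mYFP and 79.6, 174 and 105 CPM in MLACC at 8 h (8.64 ± 0.74, adjusted p = 3.06e-09), and GSTU25 (AT1G17180) had no read in mYFP and 1.60, 5.65 and 3.41 CPM in MLACC, at least 75.5-fold more. GSTU26, the next gene on the same strand, was at 9.38, 14.0 and 10.4 CPM in mYFP and 0.873, 0.435 and 1.29 CPM in MLACC (-3.68 ± 0.37, adjusted p = 2.62e-08). At 4 h it was at 6.68, 9.98 and 11.9 CPM and 1.13, 1.33 and 1.545 CPM (-2.78 ± 0.36) and at 6 h the change was -3.09 ± 0.35. The groups did not overlap at any of these times, and GSTU26 was the member with the most negative change at 4, 6 and 8 h. In mYFP it climbed over the same hours, while in MLACC its mean from 4 h on was below that at rest.

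The pair GSTU17 and GSTU18 (AT1G10360), whose annotated ends overlap by 71 bases, also went opposite ways. GSTU17 was at 13.5, 12.25 and 12.3 CPM in mYFP and 96.2, 144 and 112 CPM in MLACC at 8 h (3.22 ± 0.28, adjusted p = 4.09e-09). GSTU18 was at 38.8, 42.4 and 47.4 CPM and 10.4, 4.06 and 17.1 CPM (-2.02 ± 0.37, adjusted p = 4.13e-05), and was lower at 4 and 6 h too, at 6 h not without mYFP replicate 3 or MLACC replicate 2. GSTU17 in MLACC at 8 h remained below its level at rest. GSTU27, a gene that stands alone, was lower only at 4 h, at 6.895, 0.999 and 0.6085 CPM in MLACC and 14.15, 15.1 and 14.2 CPM in mYFP (-2.30 ± 0.55, adjusted p = 0.000896). GSTU13 was higher at 2 and 4 h, at 4 h not without MLACC replicate 2, and was not called at 8 h, when it was at 31.9, 28.7 and 35.9 CPM in MLACC and 44.8, 42.7 and 44.8 CPM in mYFP (-0.45 ± 0.19, adjusted p = 0.0339). GSTU16 (AT1G59700) and GSTU28 (AT1G53680) were not called at any time. The count of members lower at 6 h, which was 3, fell to 1 without mYFP replicate 3 or MLACC replicate 2.

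**Figure D2:**
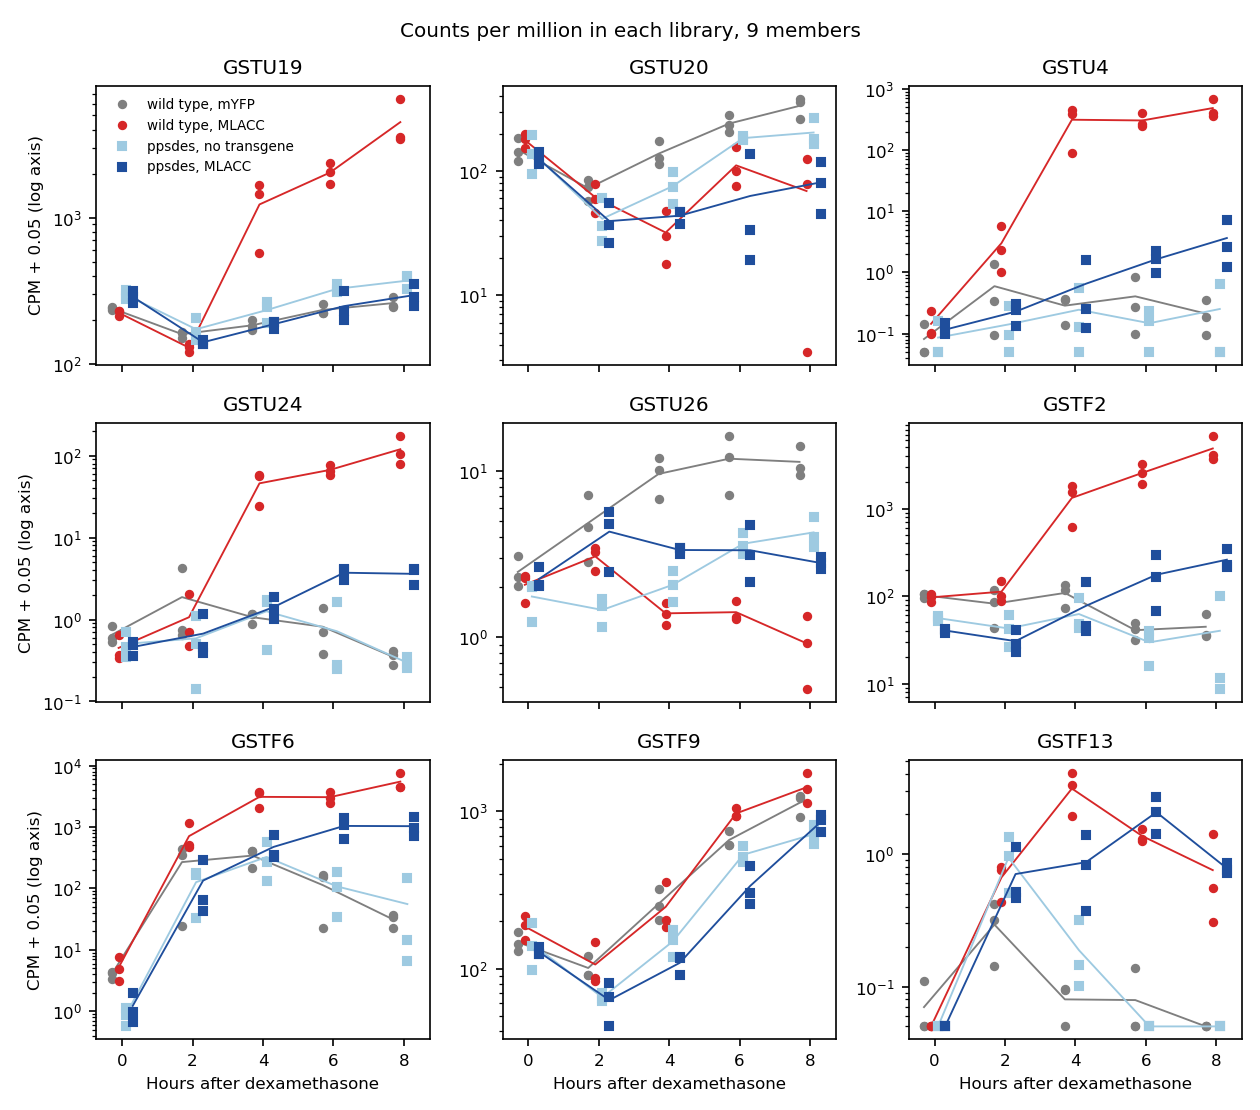
CPM of 9 members in each library (points, log axis after adding 0.05 CPM) against hours after dexamethasone, with lines through the mean of 3 replicates for mYFP and MLACC in the wild type and for the control and MLACC in ppsdes. GSTU19 reached 3436 to 6514 CPM in wild-type MLACC at 8 h and 247 to 353 CPM in ppsdes MLACC, and GSTU26 ran the opposite way to its neighbour GSTU24 in the wild type.

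In the phi class, 8 of 12 tested genes were higher and 1 lower at 8 h, and 16 of 24 tau genes were higher and 4 lower. The medians were 4.15 for phi and 5.29 for tau, or 3.43 and 4.68 with genes without control reads at their bound. Both classes hold genes that passed the filter only through MLACC. These are GSTU2, GSTU3, GSTU4, GSTU8 to GSTU12 and GSTU25 in tau, and GSTF3, GSTF5 and GSTF13 in phi. The filter favours a rise in such genes, so these counts and medians do not rank the classes. GSTF6 reached 4447, 7560 and 4438 CPM in MLACC at 8 h against 36.8, 33.75 and 22.8 CPM in mYFP (7.48 ± 0.87, adjusted p = 1.68e-07). Per kilobase it was then the most abundant member, at 4622 ± 1518 CPM per kb, ahead of GSTU19 at 4020 ± 1556, GSTF2 (AT4G02520) at 3304 ± 1136 and GSTF7 at 2152 ± 651 CPM per kb, and each of these overlapped the next within its SD. GSTF7 was at 2300, 3507 and 2023 CPM against 17.7, 12.7 and 9.795 CPM (7.62 ± 0.87, adjusted p = 1.31e-07). GSTF2, which binds small indole compounds, was at 3690, 6775 and 4116 CPM against 62.85, 35.7 and 35.1 CPM (6.79 ± 0.48, adjusted p = 3.56e-10). All 3 had MLACC replicate 2 as the highest library and no overlap with mYFP.

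GSTF5 (AT1G02940), the neighbour of GSTF6, stayed near 1 CPM in MLACC at 8 h against 1 read in mYFP (ratio 73.4, interval 12.8 to 2940), and GSTF4 (AT1G02950), the next gene, was at 6.77, 6.57 and 6.03 CPM against 8.15, 8.39 and 5.85 CPM and was not called at any time. Levels within GSTF4 to GSTF7 thus ran from about 1 CPM for GSTF5 to 4438 CPM and more for GSTF6. GSTF8 rose by 2.96 ± 0.26 and GSTF3 (AT2G02930) had a ratio of 43.8 (interval 14.7 to 215). GSTF13 had no read in mYFP at 8 h and 0.255, 1.35 and 0.5065 CPM in MLACC, at least 15.0-fold more. It peaked at 4 h, at 1.89, 3.27 and 4.03 CPM. GSTF10 was at 1374, 1292 and 791 CPM against 432, 368 and 326 CPM (1.63 ± 0.28, adjusted p = 2.07e-05). Its neighbour GSTF9 was at 1754, 1390 and 1125 CPM against 1211, 1261 and 926 CPM and was not called (0.34 ± 0.25, adjusted p = 0.219), the groups overlapping.

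GSTF11 was the phi gene called lower at 8 h, at 1.60, 0.0483 and 3.68 CPM in MLACC and 8.52, 11.4 and 7.08 CPM in mYFP (-2.34 ± 0.74, adjusted p = 0.00698). The call was lost without any of the 3 mYFP libraries, without MLACC replicate 1 or 2, with a replicate block (-2.16, adjusted p = 0.0107), and with library totals. MLACC replicate 2 had the least, as it did at 8 h for the other members called lower, GSTU18, GSTU20, GSTU23 and GSTU26. GSTF12 had no read in either group at 8 h. Other counted genes overlap GSTF11, GSTF2 and GSTF8 by 1096, 1442 and 516 bases, measured over whole annotated genes. Reads that fit both genes were left out of the counts, so some reads of these members may be missing. For GSTF2 that gene, AT4G02510, fell by 1.36 while GSTF2 rose.

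The timing differed among the risers. From 2 to 4 h the MLACC effect increased for 9 members (GSTU1, GSTU4, GSTU7, GSTU10, GSTU19, GSTU24, GSTF2, GSTF8 and GSTF13) and decreased for GSTU26, beside 7.1% and 2.08% of all genes. From 4 to 6 h edgeR called no member, beside 0.148% and 0.254% of all genes, with an unadjusted p under 0.05 for 2 increases and 3 decreases and 1 increase called by DESeq2. From 4 to 8 h it increased further for GSTU1 (3.24 ± 0.61), GSTU17 (2.22 ± 0.37), GSTF2 (3.13 ± 0.54) and GSTF6 (4.25 ± 0.97), and decreased for GSTU13 (-1.61 ± 0.26), beside 1.57% and 1.6% of all genes. For GSTU17 and GSTF6 the control itself went down between 4 and 8 h, from 218, 405 and 405 CPM to 36.8, 33.75 and 22.8 CPM for GSTF6. The count of 4 increases was 7 with library totals and 8 with DESeq2. In MLACC the mean level of GSTU5, GSTU9, GSTU12, GSTU13, GSTU17, GSTF8 and GSTF13 was highest at 4 h, and that of GSTU1 to GSTU4, GSTU19, GSTU24, GSTF2, GSTF6 and GSTF7 at 8 h.

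In ppsdes fewer members were called, later, and edgeR called none lower at any time. Of 31 tested, 1 was higher at 2 h, none at 4 h, 10 at 6 h and 11 at 8 h, beside 0.38%, 2.08%, 10.5% and 9% of all genes. With the 0 h difference subtracted, none, 1 and 1 were higher at 2, 6 and 8 h, and a stricter filter left 4 and 5 at 6 and 8 h. The shares of all genes lower at these times were 0.0156%, 0.141%, 4.13% and 3.44%. At 4 h, 4 members had an unadjusted p under 0.05 for a rise and 3 for a fall, and DESeq2 called none. For a fall at 6 and 8 h these were 5 and 5 members, of which DESeq2 called 1 at 6 h. The median of the members was 0.58 at 6 h and 0.74 at 8 h. Those called at both times were GSTU8, GSTU9, GSTU24, GSTF2, GSTF5, GSTF6, GSTF8 and GSTF13. GSTU10 and GSTF7 were called at 6 h only, and GSTU4, GSTU17 and GSTF10 at 8 h only. Among these, GSTU4, GSTU8, GSTU9, GSTU10 and GSTF5 passed the filter only through MLACC, so the counts are no support. The early call was GSTU26, at 2.41, 5.62 and 4.72 CPM in MLACC and 1.09, 1.48 and 1.64 CPM in the control at 2 h (1.59 ± 0.30, adjusted p = 0.00522). It was lost in 5 of 6 fits that left out a library of that time. The 5 mesophyll genes were not called in ppsdes at 8 h, and their summed level was 40860 to 48630 CPM in the control and 28050 to 38260 CPM in MLACC. At 6 h, CA1 was called lower (-1.04), with summed levels of 45550 to 51040 CPM and 25180 to 40540 CPM. Of the 4 epidermis, guard cell and trichome genes, KAT1 (-1.81) and MYB60 (-1.03) were called lower at 6 h and KAT1 (-1.64) at 8 h. Their summed level at 6 h was 177 to 211 CPM in the control and 92.4 to 140 CPM in MLACC, and at 8 h 214 to 242 CPM and 109 to 154 CPM. The part of these shifts in the ppsdes calls was not tested.

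Among the phi genes of ppsdes, GSTF6 was at 646, 1386 and 1092 CPM in MLACC and 34.3, 184 and 105 CPM in the control at 6 h (3.30 ± 0.94, adjusted p = 0.00699), and at 954, 1435 and 704 CPM and 14.6, 146 and 6.48 CPM at 8 h (4.19 ± 0.98, adjusted p = 0.00201). Control replicate 2 at 8 h was far above its fellows, as it was for GSTF2 and GSTF7, and yet below every MLACC library. GSTF7 was at 203, 403 and 173 CPM and 3.76, 69.5 and 1.97 CPM (3.36 ± 1.02, adjusted p = 0.0122) and passed the test only at 6 h. GSTF2 was at 224, 341 and 216.5 CPM and 8.565, 100 and 11.6 CPM (2.68 ± 0.70, adjusted p = 0.00468). GSTF13 was at 1.37, 2.65 and 2.02 CPM in MLACC at 6 h and at 0.810, 0.712 and 0.663 CPM at 8 h, with no control read at either time, at least 40.4-fold and 15.6-fold more. GSTF10 was at 560.2, 715 and 433 CPM against 242, 302 and 214 CPM (1.14 ± 0.22, adjusted p = 0.00034). GSTF9 was at 949, 876 and 739 CPM against 820.5, 704 and 622.5 CPM and was not called (0.22 ± 0.23, adjusted p = 0.458).

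Of the tau genes, GSTU8 was at 3.36, 5.98 and 3.61 CPM in ppsdes MLACC and 0.216, 0.101 and 0.141 CPM in the control at 8 h (4.71 ± 0.65, adjusted p = 1.6e-05). GSTU24 was at 3.97, 4.13 and 2.57 CPM and 0.303, 0.203 and 0.235 CPM (3.78 ± 0.71, adjusted p = 0.000337). GSTU4 was at 2.55, 7.07 and 1.16 CPM and 0, 0.608 and 0 CPM (4.15 ± 1.09, adjusted p = 0.00476). These groups did not overlap. GSTU9 was at 1.20, 1.54 and 0.883 CPM at 6 h against 3 control reads (ratio 23.8, interval 7.82 to 118), and GSTU10 at 1.20, 3.385 and 2.355 CPM against 0.0494, 0.0925 and 0.3265 CPM (3.89 ± 1.03, adjusted p = 0.00428). Of the 5 genes of GSTU1 to GSTU7 that were tested, GSTU4 was the one called at any time. GSTU5 was at 85.1, 64.7 and 113 CPM in MLACC and 215.5, 115 and 162 CPM in the control (-0.94 ± 0.35, adjusted p = 0.0375). GSTU3 and GSTU11, at 40.9 to 194 CPM in wild-type MLACC at 8 h, were at no more than 0.0865 and 0.2595 CPM in any ppsdes library from 2 h on. The count at 6 h ran from 4 to 10 and that at 8 h from 6 to 12 when single libraries were left out. At 6 h it was 5, 5 and 6 without control replicate 1, 2 or 3 and 4 and 6 without MLACC replicate 2 or 3, and at 8 h it was 6, 6 and 7 without control replicate 1, control replicate 3 or MLACC replicate 2. GSTU8, GSTF5 and GSTF13 kept their calls at 6 and 8 h in every such fit, as did GSTF8 at 6 h and GSTU24 at 8 h. Of these, GSTU8 and GSTF5 passed the ppsdes filter only through MLACC, so that their kept calls are no support.

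The MLACC effect itself was compared between the backgrounds, as the effect in ppsdes minus that in the wild type, in 1 fit of all 60 libraries, which tested 36 members. It was lower in ppsdes for 13 members at 4 h, 9 at 6 h and 13 at 8 h, and higher for 1 at 2 h, 2 at 4 h, 1 at 6 h and 3 at 8 h. With the 0 h difference subtracted, 5, 2 and 5 were lower at 4, 6 and 8 h and 1 was higher at 4 h only. Over all 19929 genes, 10.6%, 2.61% and 8.61% were lower at 4, 6 and 8 h, and 0.135%, 10.1%, 1.52% and 11.3% higher at 2, 4, 6 and 8 h. At 2 h edgeR and DESeq2 called no member lower, beside 0.0702% of all genes, and 6 members had an unadjusted p under 0.05. The median of the members was -2.72 at 4 h and -2.08 at 8 h, against 0.04 over all genes at 8 h. For GSTU1, GSTU5, GSTU6, GSTU7, GSTU19, GSTU24, GSTF2 and GSTF8 the effect was lower in ppsdes at all 3 times. By class at 8 h, 10 of 24 tau genes and 3 of 12 phi genes were lower, with medians of -3.79 and -1.46. The tau genes include GSTU2, GSTU3, GSTU11, GSTU12 and GSTU25, which had too few reads in ppsdes to be tested there. These counts and medians therefore do not rank the classes. Of GSTU1 to GSTU7, 5 of 7 were called lower. The scatter of wild-type against ppsdes effects at 8 h gives each member its place.

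**Figure D3:**
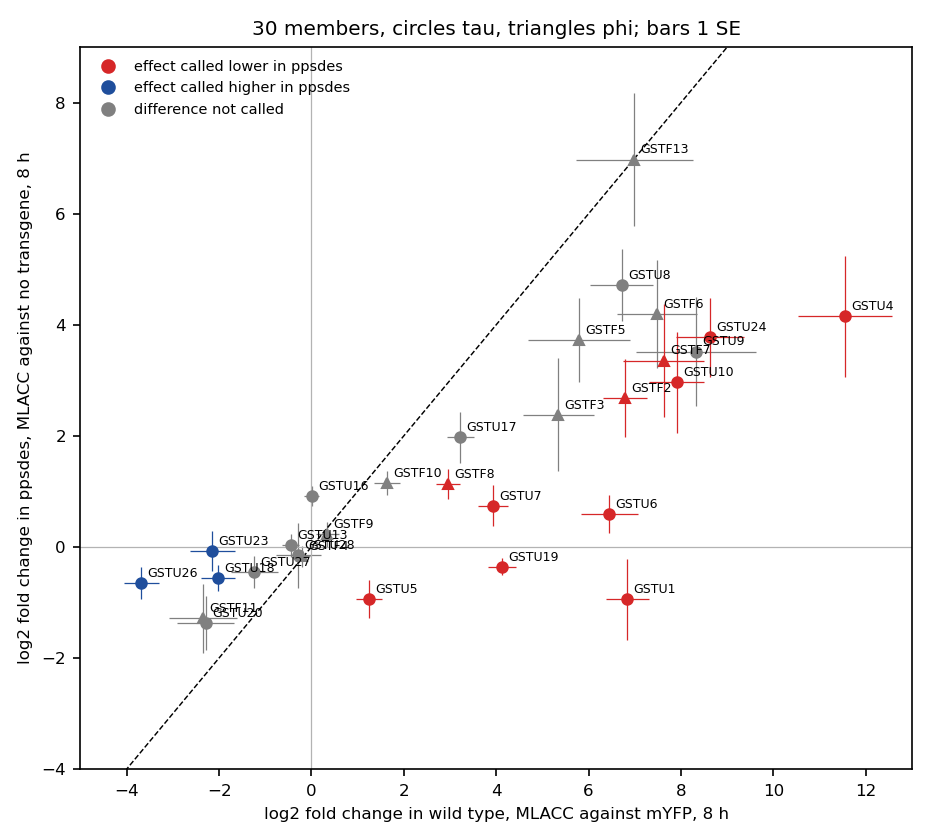
Log2 fold change of MLACC against its control at 8 h in the wild type (horizontal) and in ppsdes (vertical) for 30 of the 31 members tested in both tables (GSTF12, with no wild-type read at 8 h, is left out), with bars of 1 SE and a dashed line where both changes are equal. Members whose difference was called lower in ppsdes are in red and higher in blue; GSTU19, at 4.13 in the wild type and -0.36 in ppsdes, lies far below the line, and GSTU26 above it.

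Of the members whose MLACC effect was lower in ppsdes at 8 h, GSTU19 had the smallest SE. In ppsdes at 8 h it was at 353, 247 and 288 CPM in MLACC and 398, 391 and 326 CPM in the control (-0.36 ± 0.16, adjusted p = 0.0722), and the difference from the wild type was -4.44 ± 0.32 (adjusted p = 1.75e-13). GSTU1 was at 1.34, 0.664 and 0.870 CPM and 2.25, 2.03 and 1.17 CPM in ppsdes (-7.73 ± 0.88, adjusted p = 1.2e-08). GSTU24 differed by -4.81 ± 1.18, although it rose in both backgrounds. GSTU11 and GSTU12 differed by -12.09 ± 2.09 and -10.28 ± 1.86, where both ppsdes groups held only a few reads, so that the fitted sizes depend on the prior count. GSTU3 had a difference of -15.23 that did not pass (adjusted p = 0.0182) for the same want of reads.

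On the other side, the MLACC effect on GSTU26 was higher in ppsdes than in the wild type from 2 h on. The difference was 2.26 ± 0.45 at 2 h, 3.53 ± 0.46 at 4 h, 2.97 ± 0.45 at 6 h and 3.07 ± 0.46 at 8 h. In ppsdes at 8 h GSTU26 was at 2.96, 2.515 and 2.735 CPM in MLACC and 5.23, 3.95 and 3.43 CPM in the control, a change that did not pass (-0.65 ± 0.28, adjusted p = 0.0734). GSTU23 was at 1.01, 1.33 and 1.74 CPM and 1.60, 1.27 and 1.31 CPM in ppsdes, and its effect differed by 2.11 ± 0.61 (adjusted p = 0.0051). GSTU18 was at 26.8, 25.7 and 36.1 CPM and 32.1, 43.3 and 52.5 CPM and differed by 1.49 ± 0.44 (adjusted p = 0.00555). GSTU27 differed only at 4 h, by 2.41 ± 0.62, and not without wild-type MLACC replicate 2 or 3, when it was at 18.55, 21.0 and 17.6 CPM and 22.0, 21.2 and 11.5 CPM in ppsdes. GSTU20, in contrast, did not pass at any time; its changes at 8 h were -2.29 in the wild type and -1.37 in ppsdes, and the difference was 0.94 ± 0.78.

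For several of the strongest phi risers the difference was not called. GSTF6 differed by -3.25 ± 1.15 at 8 h (adjusted p = 0.0202), GSTF13 by 3.24 ± 2.08 at 6 h (adjusted p = 0.332) and GSTF5 by -2.02 ± 1.59 at 8 h (adjusted p = 0.317). GSTU8, with -1.95 ± 1.08 at 8 h (adjusted p = 0.139), was called only at 4 h. GSTF9 and GSTF10 differed at 8 h by -0.07 ± 0.34 and -0.45 ± 0.35. Mesophyll genes moved with the difference, 4 of 5 being higher in ppsdes at 8 h, and the part of this was not tested. Without ppsdes control replicate 2 at 8 h, 8 members in place of 13 were lower and 1 in place of 3 higher, and GSTU4, GSTU10, GSTU12, GSTF2 and GSTF7 lost their calls. The difference of GSTF2 was then -2.08 (adjusted p = 0.0118) and that of GSTF7 -1.109 (adjusted p = 0.449, from -4.23). GSTU4 went from -7.34 to -2.23 (adjusted p = 0.937), GSTU10 from -4.88 to -2.60 (adjusted p = 0.292) and GSTU12 from -10.28 to -5.42 (adjusted p = 0.981). At 8 h, GSTU1, GSTU5, GSTU6, GSTU7, GSTU19, GSTU26 and GSTF8 kept their calls whichever library was left out. The count of 3 higher was also 1 without wild-type MLACC replicate 2 or ppsdes MLACC replicate 3, and the 2 h call of GSTU26 was lost in 8 of 12 such fits.

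Summed over all 41 genes, the rise came to a large share of the leaf's counted RNA in the wild type. At 8 h the members took 2.07%, 2.96% and 1.92% of the gene counts in MLACC and 0.288%, 0.285% and 0.224% in mYFP. In ppsdes they took 0.422%, 0.491% and 0.326% in MLACC and 0.216%, 0.216% and 0.162% in the control. The groups did not overlap in either background. The 13 phi genes made up most of it: 1.69% in wild-type MLACC against 0.629% for the 28 tau genes, and 0.339% against 0.0744% in ppsdes MLACC, where the tau share was no higher than the 0.0852% of its control. Within the member counts of wild-type MLACC at 8 h, GSTF6 made up 24.1%, GSTF2 21.4%, GSTU19 19.6% and GSTF7 11.5%.

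**Figure D4:**
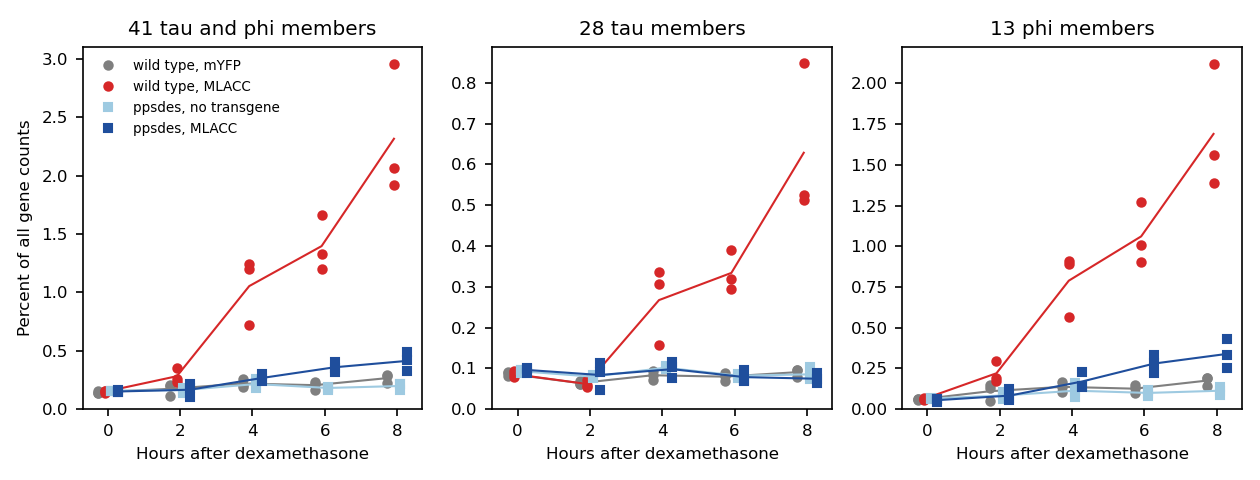
Percent of all gene counts in each library (points) taken by the 41 members, the 28 tau genes and the 13 phi genes against hours after dexamethasone, with lines through the means of 3 replicates for the 4 lines. In wild-type MLACC the members rose from 0.148% at 0 h to 2.32% at 8 h, and in ppsdes MLACC from 0.151% to 0.413%.

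Over the 20 group means of log2 CPM, pairs from the same tandem cluster had a higher median correlation than other pairs in the wild type, but not in ppsdes. Many of these pairs come from GSTU1 to GSTU7, and neighbours in some other clusters parted. GSTU2, GSTU3, GSTU11, GSTU12 and GSTU25 were included, with too few reads in ppsdes to be tested there. The ppsdes median therefore cannot show whether a shared course was lost. Members that passed the filter only through MLACC, named at the end of this paragraph, were included too. By that choice they share a rise from few reads in the wild type. The wild-type median of cluster pairs is therefore no support for a shared course of neighbours. Over both, pairs from the same tandem cluster had a median Pearson r of 0.778 (36 pairs, from -0.908 to 0.98), pairs of 1 class from other places 0.09 (306 pairs) and pairs of different classes 0.321 (288 pairs). Within the 10 wild-type groups these medians were 0.851, 0.191 and 0.372, and within the 10 ppsdes groups -0.021, -0.009 and 0.085. The median identity of cluster pairs in coding sequence was 72.1%. The points share libraries, members of a pair can share reads, and no test was made. In the wild type at 8 h, 17 of 25 tested genes in clusters were higher and 4 lower, and of 11 that stand alone 7 were higher and 1 lower. The shares over all genes at 8 h are given above. GSTU2, GSTU3, GSTU4, GSTU11, GSTU12, GSTU25 and GSTF5 in clusters passed the filter only through MLACC. So did GSTU8, GSTU9, GSTU10, GSTF3 and GSTF13, which stand alone. These counts therefore do not compare clustered with single genes.

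Other genes that handle glutathione were followed in a list of their own. Of 16 genes of glutathione synthesis, reduction, breakdown and conjugate transport, 15 were tested, and 9 were higher and 2 lower in the wild type at 8 h, with a median of 1.68. The 2 largest increases were ABCC3, a vacuolar conjugate transporter, at 4.15, and GGCT2;1, which breaks glutathione down, at 2.59. The 2 called lower were GGCT2;2 at -1.58 and GR2, the glutathione reductase of plastids and mitochondria, at -1.04. In ppsdes at 8 h ABCC3 was higher (4.06) and GGCT2;2 lower (-1.70), and no other gene of the list was called. Of 12 glutathione transferases of other classes, 3 were higher and 3 lower in the wild type at 8 h, a share like that of all genes (23.1% and 22.6%). GSTL1, of the lambda class, was called higher, at 74.3 to 137 CPM in MLACC and 0 to 0.103 CPM in mYFP, and GSTZ1, of the zeta class, rose by 2.80, while GSTL2 was at -1.44 and DHAR3, a dehydroascorbate reductase, at -1.33. In ppsdes only GSTZ1 (1.38) and DHAR1 (-1.13) were called.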

How the data were processed

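RNA from leaf discs was sequenced from unstranded poly(A) libraries. Per the labels and the study's methods, reads were checked with FastQC 0.11.2 and mapped to TAIR10 with TopHat2 2.0.10, and the authors counted them per gene with HTSeq, whose version is not given in the sources used here. For 32678 genes, the deposited values are raw read counts in 2 tables of 30 libraries each. HTSeq's 5 summary lines, with reads in no gene (1.24% to 2.26% of the reads listed), reads that fit several genes (0.362% to 0.671%) and reads that map to several places (6.46% to 14.2%), were kept out of library sizes and tests. HTSeq leaves out reads that overlap several genes or map to several places, which lowers the counts of overlapping and near-identical members.

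Tests were run in edgeR 4.0.16 (R 4.3.3) with filterByExpr, TMM factors, 1 mean per group and quasi-likelihood F tests, on the 30 libraries of each table, or on all 60 for the difference between backgrounds and the control lines at 0 h. Benjamini-Hochberg adjustment was over all genes tested. Calls needed an adjusted p under 0.01 and a log2 fold change of more than 1 in size, as in the study. A sample pools discs of 6 plants, and nothing says that replicates were separate experiments, so p-values measure the spread between these samples. Replicates of a group always differed by more than sampling noise. Same-numbered samples deviated together (correlation above 0.1) in 20 of 30 pairs, so the numbers were not taken to pair samples.

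Where the control had no read, the mean CPM was set against a floor of 3 counts over the control group. With 1 to 3 control reads, the ratio of counts carries an exact 95% interval. Both cover counting error only. The members and lists were chosen with earlier results of these data known. Values in each library are given for the 3 called members of largest change in either direction in any MLACC comparison, in the difference between backgrounds or in the controls at 2 h, and for the most abundant member of each class. For the pairs GSTU19 with GSTU20 and GSTU25 with GSTU26, promoters were picked after their values were seen. Some other members are given with library values for comparison. Alternatives were library totals or RLE size factors, DESeq2 1.42.0, no filter or a stricter filter, a replicate block, only the groups compared, the 0 h difference subtracted, no libraries nearest another time, an adjusted p below 0.05 with no fold limit, near-identical pairs summed, and each library left out.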

Additional observations from a re-analysis of the deposited data

Results flagged for a closer look

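The MLACC effect differed between the backgrounds, by the test of the difference itself (edgeR over all genes, effect in ppsdes minus effect in the wild type), for the members listed here with their log2 differences. At 2 h this was GSTU26 (2.26). At 4 h the effect was lower in ppsdes for GSTU1 (-5.32), GSTU4 (-8.63), GSTU5 (-2.18), GSTU6 (-3.18), GSTU7 (-3.54), GSTU8 (-4.12), GSTU10 (-5.70), GSTU19 (-3.06), GSTU24 (-5.33), GSTF2 (-3.30), GSTF8 (-1.96), GSTF10 (-1.23) and GSTF13 (-4.005), and higher for GSTU26 (3.53) and GSTU27 (2.41). At 6 h it was lower for GSTU1 (-5.66), GSTU5 (-1.79), GSTU6 (-3.35), GSTU7 (-2.64), GSTU11 (-10.80), GSTU19 (-3.51), GSTU24 (-3.93), GSTF2 (-3.41) and GSTF8 (-1.60), and higher for GSTU26 (2.97). At 8 h it was lower for GSTU1 (-7.73), GSTU4 (-7.34), GSTU5 (-2.14), GSTU6 (-5.80), GSTU7 (-3.14), GSTU10 (-4.88), GSTU11 (-12.09), GSTU12 (-10.28), GSTU19 (-4.44), GSTU24 (-4.81), GSTF2 (-4.07), GSTF7 (-4.23) and GSTF8 (-1.78), and higher for GSTU18 (1.49), GSTU23 (2.11) and GSTU26 (3.07). At 4 h, GSTU8, GSTF10 and GSTF13 lost their calls in 7, 8 and 9 of the 12 fits that left out a library of that time, and GSTU5 at 6 h in 9. Without ppsdes control replicate 2 at 4 h, GSTU4 (-6.65, adjusted p = 0.205) and GSTU10 (-4.26, adjusted p = 0.0391) were not called. Without ppsdes control replicate 3 at 6 h, GSTU24 (-2.37, adjusted p = 0.214) was not called. Without ppsdes control replicate 2 at 8 h, GSTU4, GSTU10, GSTU12, GSTF2 and GSTF7 were not called, and GSTF7 lost its call in 6 of the fits that left out a library at 8 h, GSTU18 and GSTU23 in 5 each.

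Within the wild type, the effect also differed between times. From 2 to 4 h it increased for GSTU1 (4.79), GSTU4 (7.99), GSTU7 (2.98), GSTU10 (5.75), GSTU19 (3.05), GSTU24 (6.40), GSTF2 (3.16), GSTF8 (1.84) and GSTF13 (5.17) and decreased for GSTU26 (-2.16). From 4 to 8 h it increased for GSTU1 (3.24), GSTU17 (2.22), GSTF2 (3.13) and GSTF6 (4.25) and decreased for GSTU13 (-1.61).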

How the results depend on the processing

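The 412 log2 fold changes of members were recomputed under 6860 alternatives: 6481 kept their direction and side of the threshold, 300 lost their call, 79 gained one and none reversed. Of 82 levels recomputed on library totals, none moved by more than 1 SD. Summing GSTF2 with GSTF3 and GSTF6 with GSTF7 changed none of 24 values. Unless given here, counts of members stayed within 1.5 times those reported; the causes were not tested.

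With the 0 h difference subtracted, which adds the noise of 6 or 12 libraries, members higher in wild-type MLACC were 0 at 2 h (from 4), 12 at 4 h (from 24) and 12 at 6 h (from 22), and members lower 1 at 4 h (from 4) and 3 at 8 h (from 5). In ppsdes, members higher were 0 at 2 h (from 1), 1 at 6 h (from 10) and 1 at 8 h (from 11). In the difference between backgrounds, members lower were 5, 2 and 5 at 4, 6 and 8 h (from 13, 9 and 13), and members higher 0, 1, 0 and 0 at 2, 4, 6 and 8 h (from 1, 2, 1 and 3). A stricter filter tests fewer members, and members higher in the wild type were then 2, 11, 9 and 11 at 2, 4, 6 and 8 h (from 4, 24, 22 and 24), and in ppsdes 4 and 5 at 6 and 8 h (from 10 and 11). It gave 8 lower in the difference at 4 h and 8 at 8 h (from 13 each), 1, 0 and 2 lower in mYFP at 2, 4 and 8 h (from 2, 1 and 4) and 1 lower in the ppsdes control at 6 h (from 2).

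With only the groups compared, members higher were 0 in the wild type at 2 h (from 4), 0 and 6 in ppsdes at 2 and 8 h (from 1 and 11), and 0 and 1 in the difference at 2 and 4 h (from 1 and 2). Members lower were 2 and 1 in the wild type at 4 and 8 h (from 4 and 5) and 6 in the difference at 4 h (from 13). At an adjusted p below 0.05 with no fold limit, members higher were 7 in the wild type at 2 h (from 4), 2 in ppsdes at 4 h (from 0), 2 in the difference at 6 h (from 1), 5 and 7 in mYFP at 2 and 4 h (from 3 and 4), and from 4 to 8 h 8 in the wild type (from 4) and 2 in ppsdes (from 0). Members lower were 4 and 2 in ppsdes at 6 and 8 h (from 0 and 0), 21 in the difference at 4 h (from 13), 3 and 7 in mYFP at 4 and 8 h (from 1 and 4), 7 in the ppsdes control at 6 h (from 2) and 2 from 4 to 8 h in the wild type (from 1).

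DESeq2 gave 8 and 2 increases from 4 to 8 h in the wild type and ppsdes (from 4 and 0), 2 higher in the difference at 6 h (from 1) and 1 lower in ppsdes at 6 h (from 0). Library totals gave 7 increases from 4 to 8 h in the wild type (from 4), 1 lower in mYFP at 2 h (from 2), and 1 and 0 lower in the ppsdes control at 2 and 4 h (from 4 and 3). Without the 7 libraries nearest another time, members higher were 1 in the wild type at 2 h (from 4) and 0 and 2 in the difference at 2 and 6 h (from 1 and 1), and members lower 2 and 1 in ppsdes at 6 and 8 h (from 0 and 0). With a replicate block, 1 member was lower in ppsdes at 6 h (from 0), and of the 412 fold changes 8 gained and 1, GSTF11 at 8 h in the wild type, lost a call. In the check of pairing, 20 of 30 samples correlated best with their own number.

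With each library left out in turn, members higher ranged in the wild type from 1 to 5 at 2 h, and members lower from 1 to 3 at 6 h. In ppsdes, members higher ranged from 0 to 1 at 2 h, from 4 to 10 at 6 h and from 6 to 12 at 8 h, and members lower from 0 to 3 at 6 h. In the difference, members higher ranged from 0 to 1, 1 to 3, 1 to 2 and 1 to 4 at 2, 4, 6 and 8 h, and members lower from 0 to 1 at 2 h and from 8 to 14 at 8 h. In mYFP against 0 h, members lower ranged from 1 to 1 at 2 h and from 1 to 2 at 4 h, and members higher from 3 to 5 at 8 h. In the ppsdes control, members lower ranged from 2 to 4, 1 to 3 and 1 to 2 at 2, 4 and 6 h, and members higher from 3 to 4 at 4 h and 3 to 5 at 6 h. Increases from 4 to 8 h in ppsdes ranged from 0 to 2. In the wild type, 22 to 24 members were higher at 4 h and 24 to 24 at 8 h. Depth limits GSTU3, GSTU9, GSTU11, GSTU12, GSTU25, GSTF5 and GSTF13, whose control groups held at most a few reads.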
